A study of Homo sapiens with 4 samples.

Results

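The genes described here are 48 genes of DNA replication and of the passage from G1 into S phase, measured by RNA sequencing in OCI-AML3, a human acute myeloid leukaemia cell line. They were chosen by name and grouped by the complex or step in which their products act, and each of the 48 symbols matched exactly 1 of the 41084 Ensembl identifiers in the deposited tables. There were 2 libraries of each genotype. The first genotype is labelled Plex CEBPB and the second Plex Control, and the sources used here do not explain the word Plex. Both groups are the same line, and the labels give no treatment, time point, clone or construct for either. The labels do not say whether the libraries of a group came from separate cultures, so the p-values measure the spread between these libraries, which may be technical. The CEBPB product, C/EBPβ, is a transcription factor that acts in myeloid cells and in inflammation.

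As background, replication is prepared in G1, when the origin recognition complex, CDC6 and CDT1 load the MCM2-7 helicase onto DNA. At the start of S phase CDC45 and the GINS complex join the helicase and turn it on, and polymerases, a sliding clamp and its loader copy both strands. Transcription factors of the E2F family, released when cyclin-dependent kinases act on RB1, drive many of these genes, and cyclin E with its kinase marks the step from G1 into S. Bulk RNA does not tell fewer cells in S phase from less of an RNA in each cell.

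The deposited counts summed to 18151225 to 21950575 per library. CEBPB itself was at 536 and 339 TPM (a level scaled for transcript length and for the library's total) in the CEBPB libraries, against 4.72 and 4.47 TPM in the Control libraries, higher by 6.38 ± 0.26 on the log2 scale (SE; edgeR, adjusted p = 1.3e-04). The values do not separate the cell's own gene from any copy that was added. The myeloid markers CD33 (46.5 to 53.0 TPM) and PTPRC (244 and 289 TPM in the CEBPB libraries, 198 and 207 TPM in the Control libraries) were present in all 4 libraries, while MPO stood at 1.79 TPM or less. The 8 myeloid markers together summed to 8243 and 8580 TPM in the CEBPB libraries and to 2255 and 2158 TPM in the Control libraries, and LYZ, the lysozyme gene, made up 7686 and 7921 TPM of this in the CEBPB libraries and 1413 and 1308 TPM in the Control libraries. The other 7 summed to 557 and 659 TPM in the CEBPB libraries and to 842.5 and 850.1 TPM in the Control libraries. Of the 8, LYZ (2.34) and ITGAM (1.80) rose, SPI1 (-1.16), CD68 (-1.26), CSF1R (-1.99) and MPO (-2.43) fell, and CD33 and PTPRC were not called. The part of these markers in the results below was not tested. The 12 markers of other cell types fixed for this check summed to 2.97 and 1.46 TPM in the CEBPB libraries and to 1.49 and 1.02 TPM in the Control libraries, and CD3E, HBB and CDH5 were at 0 in all 4.

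All 48 genes passed the filter on low counts. In the CEBPB libraries 26 of them were lower than in the Control libraries, 4 were higher and 18 were not called (edgeR's quasi-likelihood test, Benjamini-Hochberg adjusted p under 0.05 over all 13698 identifiers tested). Over all identifiers tested 48.5% were called, 24.7% lower and 23.7% higher. Among the 48 genes 62.5% were called, with 54.2% lower and 8.33% higher. The median log2 fold change of the 48 was -0.25, beside 0.00092 for all identifiers tested. Most falls were small. They ran from 0.21 to 1.23 on the log2 scale. Against a change of at least 1.5-fold the genes called were POLD1, POLD2, MCM2 and CDT1, all 4 of them lower. These are 8.33% of the 48, near the 8.67% of all identifiers called lower. In the same test 0% of the 48 and 8.66% of all identifiers were called higher. At an unadjusted p under 0.05 in the test against no change, 33 of the 48 (68.8%) passed, beside 55.8% of all identifiers tested.

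The scale of the comparison matters for changes of this size. The fit scales libraries by the trimmed mean of M values, which sets the median identifier near 0. Scaled by library totals alone, as TPM is, the median of all identifiers tested was 0.18 on the log2 scale, and 15 of the 48 genes were lower and 7 higher, where 17.2% of all identifiers were lower and 32.3% higher. Of the called genes 86.7% were lower with the first scaling and 68.2% with the second. Among all identifiers called, 51% were lower with the first and 34.8% with the second. The TPM values below therefore read higher in the CEBPB libraries by about this shift than the fold changes beside them. With 13 fits over scalings, tools, filters and left-out libraries, 15 genes were called lower in every one: CDT1, MCM2, MCM4, MCM5, MCM6, MCM7, CDC45, GINS2, RFC2, RFC3, POLD1, POLD2, POLE, E2F1 and CCNE1. Of those higher, CCNE2 was called in every one. The 13 fits do not include the test against a 1.5-fold change. What share of all identifiers was called in every fit was not computed.

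**Figure D1:**
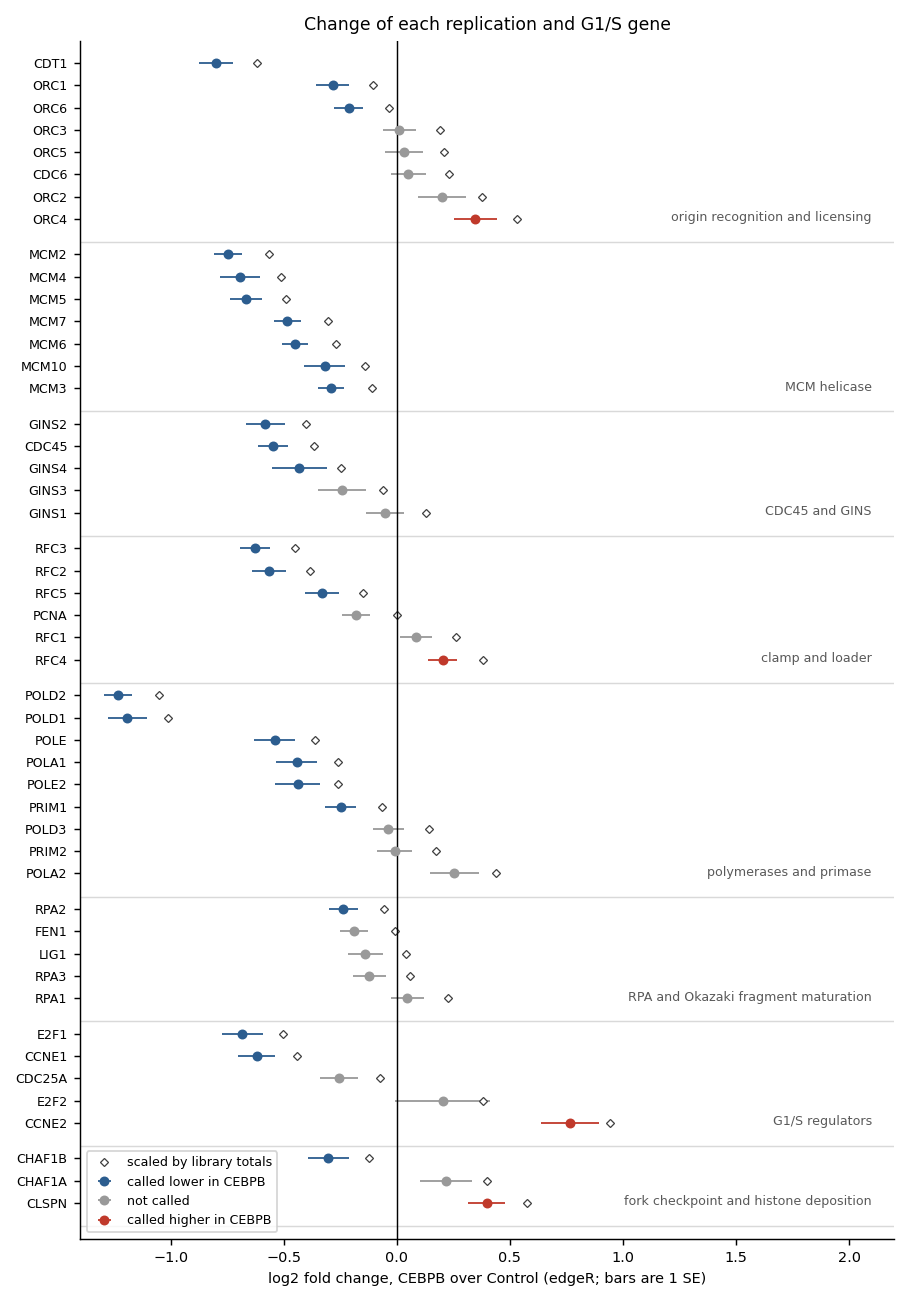
Log2 fold change (horizontal axis, CEBPB over Control) of each of the 48 genes, grouped by role, with points and bars of 1 SE for trimmed-mean scaling, coloured by call, and open diamonds for scaling by library totals. POLD2 and POLD1 lie farthest to the left at -1.23 and -1.19, CCNE2 farthest to the right at 0.77, and the diamonds lie to the right of the points by about 0.18.

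E2F sites are the textbook feature that many of these genes share, so the stretch around their start sites was searched. RefSeq start windows on GRCh38.p14, from 250 bases before to 50 bases after the start, were on hand for 41 of the 48 genes. There was none for MCM4, MCM5, GINS4, POLD3, RPA2, RPA3 or CCNE2, the gene with the largest rise. The E2F motif was searched as TTTCCCGC, TTTGGCGC, TTTCGCGC or TTTGCCGC on both strands. Near variants such as TTTGGCGG were not searched. From 200 bases before to 20 bases after the start, TTTGGCGG occurs on either strand in CDC45, MCM10, CHAF1A and RFC1, which count as without a match. It also occurs in CDT1, CDC6 and POLA2, which hold a match. The E2F motif as searched was present for 21 of 41 genes (51.2%), against 3.99% of the 27305 genes with a window. Among these 21 were 11 of the 22 genes with a window that were called lower, 1 of 3 called higher and 9 of 16 not called. The CCAAT motif, searched on both strands, was present for 24 of 41 (58.5%), against 39.7% of all genes. A C/EBP motif, searched as TTNNGCAA on both strands, was present for 2 of 41 (4.88%), POLD1 and CLSPN, against 12.7% of all genes. The letters TTTGAA, a cell cycle element known as CHR, were searched on both strands and found in none of the 41, against 18.2% of all genes. CCAAT can overlap other matches in these windows, and 2 E2F matches on opposite strands can share bases. A match is a run of letters and not a measured binding site.

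The sequences below are shown because they set E2F-bearing starts of genes that were lower (MCM2, MCM6, CDT1, E2F1, POLE) beside one of a gene that was higher (CLSPN) and one of the gene with the largest fall, which holds no E2F match in its window (POLD2). Each runs 5′ to 3′ on the gene's strand from 200 bases before the start site to 20 bases after it, and capitals mark E2F matches. In GRCh38.p14 they lie at chr3:127598211-127598430 (plus strand), chr2:135876424-135876643 (minus strand), chr16:88803589-88803808 (plus strand), chr20:33686366-33686585 (minus strand), chr12:132687323-132687542 (minus strand), chr1:35769959-35770178 (minus strand) and chr7:44123529-44123748 (minus strand).
MCM2: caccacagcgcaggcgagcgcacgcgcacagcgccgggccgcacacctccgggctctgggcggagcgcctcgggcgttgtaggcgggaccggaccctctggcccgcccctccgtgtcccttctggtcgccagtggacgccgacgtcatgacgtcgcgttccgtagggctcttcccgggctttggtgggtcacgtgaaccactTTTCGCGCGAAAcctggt
MCM6: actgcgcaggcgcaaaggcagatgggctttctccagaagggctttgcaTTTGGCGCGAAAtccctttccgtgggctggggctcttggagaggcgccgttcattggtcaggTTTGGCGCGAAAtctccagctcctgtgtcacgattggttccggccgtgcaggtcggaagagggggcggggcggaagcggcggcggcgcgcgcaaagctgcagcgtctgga
CDT1: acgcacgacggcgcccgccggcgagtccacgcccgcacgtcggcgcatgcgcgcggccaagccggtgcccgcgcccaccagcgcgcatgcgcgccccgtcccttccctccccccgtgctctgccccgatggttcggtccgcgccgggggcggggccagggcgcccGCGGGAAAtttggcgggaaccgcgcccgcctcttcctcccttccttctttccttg
E2F1: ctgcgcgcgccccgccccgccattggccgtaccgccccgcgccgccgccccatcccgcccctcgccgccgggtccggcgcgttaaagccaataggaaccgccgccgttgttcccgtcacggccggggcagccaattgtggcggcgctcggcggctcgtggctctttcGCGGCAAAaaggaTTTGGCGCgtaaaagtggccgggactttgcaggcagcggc
POLE: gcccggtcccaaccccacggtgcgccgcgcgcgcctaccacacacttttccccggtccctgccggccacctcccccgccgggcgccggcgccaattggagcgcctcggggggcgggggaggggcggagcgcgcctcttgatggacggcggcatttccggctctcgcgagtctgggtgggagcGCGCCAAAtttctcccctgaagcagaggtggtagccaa
CLSPN: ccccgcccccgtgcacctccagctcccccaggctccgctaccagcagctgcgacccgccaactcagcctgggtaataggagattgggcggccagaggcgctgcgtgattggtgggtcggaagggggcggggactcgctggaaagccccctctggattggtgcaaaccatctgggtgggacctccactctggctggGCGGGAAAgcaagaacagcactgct
POLD2: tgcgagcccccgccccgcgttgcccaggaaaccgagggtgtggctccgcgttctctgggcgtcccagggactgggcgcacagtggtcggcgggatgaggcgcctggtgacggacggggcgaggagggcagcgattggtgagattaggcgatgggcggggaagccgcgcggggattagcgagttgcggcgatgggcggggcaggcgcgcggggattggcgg

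MCM6 holds 4 matches in 2 overlapping pairs, whose first bases lie 152, 148, 90 and 86 bases before the start. MCM2 holds an overlapping pair that begins 2 bases past the start. In E2F1 the matches begin 33 and 20 bases before the start, and in CDT1, POLE and CLSPN the single match begins 35, 18 and 5 bases before it. POLD2 instead holds 2 CCAAT matches in its window, 1 of them beginning 68 bases before the start and 1 beginning 12 bases past it.

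**Figure D2:**
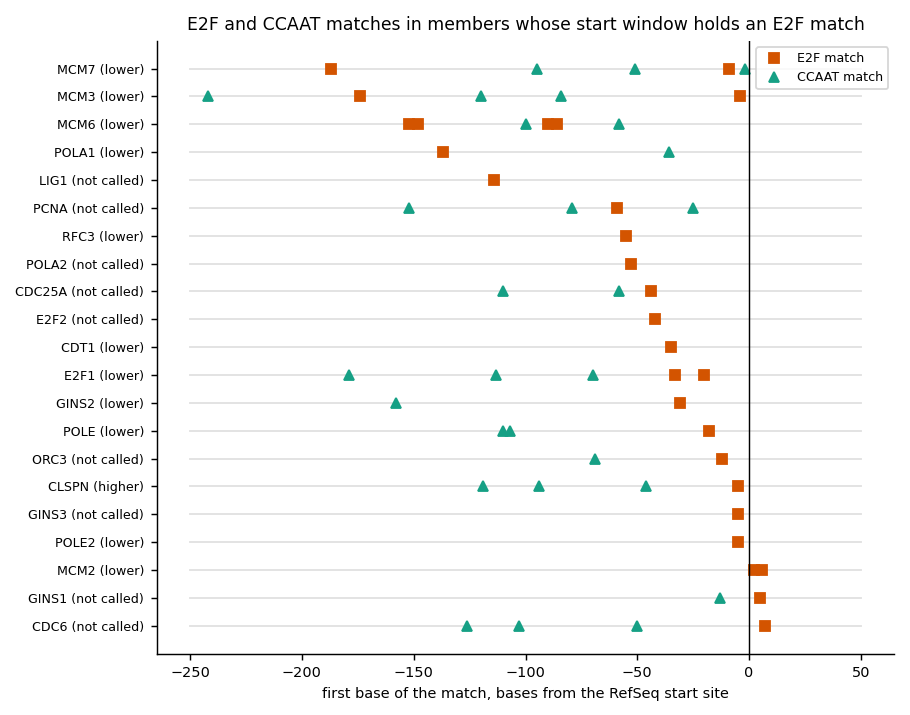
Position of E2F matches (squares) and CCAAT matches (triangles) around the RefSeq start site, for the 21 genes whose window holds an E2F match, with each gene's call in brackets, the first base of the match on the horizontal axis in bases from the start and the searched window as a grey line. In 18 of the 21 genes an E2F match begins before the start and in 3 every E2F match begins past it, and called and uncalled genes stand side by side.

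Origin recognition and licensing genes moved in both directions. Of 8 genes 3 fell (37.5%), 1 rose (12.5%) and 4 were not called, with a median log2 fold change of 0.02. Over all identifiers tested 24.7% fell and 23.7% rose. The 50% called here are near the 48.5% of all identifiers. CDT1, the licensing factor that brings MCM2-7 to the origin (chromosome 16, 88803213 to 88809258), was at 22.7 and 20.5 TPM in the CEBPB libraries, against 33.1 and 33.3 TPM in the Control libraries. Both CEBPB libraries lay below both Control libraries (-0.80 on the log2 scale, SE 0.07, adjusted p = 9.4e-04, edgeR). ORC1, the largest subunit, was at 29.2 and 28.0 TPM in the CEBPB libraries and 31.1 and 30.4 TPM in the Control libraries (-0.28, SE 0.07, adjusted p = 0.0232, edgeR). ORC6 stood at 53.4 and 51.9 TPM in the CEBPB libraries and 54.3 and 53.5 TPM in the Control libraries (-0.21, SE 0.06, adjusted p = 0.0418, edgeR). Neither ORC1 (adjusted p = 0.339, edgeR) nor ORC6 (0.729) passed when libraries were scaled by totals. Leaving out any 1 of the 4 libraries ended both calls (adjusted p 0.0586 to 0.129 for ORC1 and 0.0637 to 0.212 for ORC6, edgeR). DESeq2 did not call them (0.128 for ORC1 and 0.151 for ORC6), nor did edgeR call ORC6 without a filter (0.0617).

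ORC4, a subunit of the core ring, was the licensing gene that rose. It read 65.6 and 52.9 TPM in the CEBPB libraries, against 41.1 and 41.1 TPM in the Control libraries (0.35, SE 0.09, adjusted p = 0.0303, edgeR). The CEBPB libraries differed from each other by more than the Control libraries did, and the call was lost without CEBPB replicate 1, without Control replicate 1 and without Control replicate 2 (adjusted p = 0.0747, 0.118 and 0.121, edgeR). ORC2 (0.20, adjusted p = 0.174, edgeR), ORC3 (0.01, 0.914), ORC5 (0.03, 0.799) and CDC6 (0.05, 0.619), the ATPase that works with CDT1, were not called. ORC2 was called higher by library totals (0.38, adjusted p = 0.0219, edgeR), in both limma fits, with recovered reads (0.31, 0.0080) and without CEBPB replicate 1 (0.33, 0.0478). CDC6 was at 50.2 and 48.7 TPM in the CEBPB libraries and 44.2 and 40.3 TPM in the Control libraries. Within 1 library the ratio of ORC4 to ORC1 was 2.25 and 1.89 in the CEBPB libraries and 1.32 and 1.35 in the Control libraries.

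All 7 MCM genes fell, with a median of -0.48, where 24.7% of all identifiers tested fell. MCM2 to MCM7 encode the ring of the replicative helicase, and MCM10 a factor that acts when the helicase starts. MCM2 (chromosome 3, 127598223 to 127622436), whose start is printed above, was at 94.3 and 86.4 TPM in the CEBPB libraries, against 131 and 136 TPM in the Control libraries (-0.75, SE 0.06, adjusted p = 6.9e-04, edgeR). MCM5 was at 147 and 140.1 TPM in the CEBPB libraries and 210.1 and 193 TPM in the Control libraries (-0.67, SE 0.07, adjusted p = 0.0014, edgeR). MCM7 was at 193 and 186 TPM in the CEBPB libraries and 231 and 238 TPM in the Control libraries (-0.48, SE 0.06, adjusted p = 0.0022, edgeR). In each of these genes the groups did not overlap in TPM. Among all the genes described here the CEBPB libraries lay below in 23 and above in 16, and the groups overlapped in 9. Genes not called, such as ORC3 and POLD3, were among those without overlap. Separate groups thus add little to a call, here or for CDT1, CDC45 and GINS2. The share of all identifiers with separate groups was not computed.

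MCM4 was at 226 and 188 TPM in the CEBPB libraries, against 282 and 309 TPM in the Control libraries (-0.69, SE 0.09, adjusted p = 0.0025, edgeR). MCM6 was at 117 and 109 TPM in the CEBPB libraries and 137 and 136 TPM in the Control libraries (-0.45, SE 0.06, adjusted p = 0.0027, edgeR). MCM3 changed least among the ring genes, with 259 and 238 TPM in the CEBPB libraries and 268 and 270 TPM in the Control libraries (-0.29, SE 0.06, adjusted p = 0.0107, edgeR). It was not called by library totals (adjusted p = 0.233, edgeR), without Control replicate 1 (0.0896) or without Control replicate 2 (0.0933). MCM10 fell by 0.32 (adjusted p = 0.0337, edgeR), with 40.8 and 42.0 TPM in the CEBPB libraries and 42.9 and 48.4 TPM in the Control libraries, and it was likewise not called by library totals (0.244), by DESeq2 (0.0584), without CEBPB replicate 1 (0.136) or without Control replicate 2 (0.191).

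The falls were unequal within the ring. The 6 ring genes summed to 1037 and 947.5 TPM in the CEBPB libraries and to 1259 and 1281 TPM in the Control libraries. MCM3 had the highest level of the 6 in both CEBPB libraries, and MCM4 in both Control libraries. The highest level was 2.74 and 2.76 times the lowest in the CEBPB libraries, and 2.15 and 2.27 times in the Control libraries. The ratio of MCM2 to MCM3 was 0.365 and 0.362 in the CEBPB libraries and 0.491 and 0.505 in the Control libraries. The ratio of MCM5 to MCM3 was 0.567 and 0.587 in the CEBPB libraries and 0.785 and 0.714 in the Control libraries. These ratios do not depend on how libraries are scaled.

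CDC45 and GINS, the partners that switch the helicase on, held 3 falls among 5 genes, with 2 not called and a median of -0.43. The falls made up 60%, beside 24.7% of all identifiers tested. CDC45 was at 62.8 and 61.7 TPM in the CEBPB libraries, against 81.2 and 79.6 TPM in the Control libraries (-0.55, SE 0.07, adjusted p = 0.0019, edgeR). GINS2 was at 19.0 and 16.9 TPM in the CEBPB libraries and 24.0 and 23.4 TPM in the Control libraries (-0.58, SE 0.09, adjusted p = 0.0038, edgeR). Both genes were lower in each CEBPB library than in either Control library. GINS4 was at 53.8 and 41.4 TPM in the CEBPB libraries and 53.1 and 60.1 TPM in the Control libraries, so the groups overlapped in TPM (-0.43, SE 0.12, adjusted p = 0.0331, edgeR), and it was not called by library totals (0.201), without CEBPB replicate 2 (0.0918) or without Control replicate 2 (0.144). GINS3 (-0.24, adjusted p = 0.113, edgeR) and GINS1 (-0.05, 0.636) were not called. GINS1 read 20.1 and 19.2 TPM in the CEBPB libraries and 17.8 and 18.2 TPM in the Control libraries, and its value turned positive when libraries were scaled by totals (0.13) and in both limma fits on TPM. With recovered reads GINS1 was called lower (-0.21, adjusted p = 0.0415, edgeR).

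The largest falls were in the subunit genes POLD2 and POLD1 of DNA polymerase δ, which copies the lagging strand. POLD2, its second subunit (chromosome 7, 44114681 to 44124358), was at 61.8 and 59.1 TPM in the CEBPB libraries, against 125 and 126 TPM in the Control libraries. POLD2 was thus 2.35-fold lower in the CEBPB libraries (-1.23, SE 0.06, adjusted p = 2.0e-04, edgeR). POLD1, the catalytic subunit (chromosome 19, 50384204 to 50418016), was at 33.8 and 28.0 TPM in the CEBPB libraries and 62.5 and 62.1 TPM in the Control libraries (-1.19, SE 0.09, adjusted p = 4.4e-04, edgeR), or 2.28-fold lower. Both were also lower by more than 1.5-fold (edgeR, adjusted p = 6.8e-04 for POLD2 and 0.0023 for POLD1). POLD3, a subunit that binds the clamp, was at 36.7 and 34.7 TPM in the CEBPB libraries and 31.8 and 33.0 TPM in the Control libraries. It was not called (-0.04, SE 0.07, adjusted p = 0.695, edgeR; 0.14 by library totals and 0.14 in both limma fits). Within 1 library the ratio of POLD1 to POLD3 was 0.919 and 0.808 in the CEBPB libraries and 1.97 and 1.88 in the Control libraries. The ratio of POLD2 to POLD3 was 1.68 and 1.71 in the CEBPB libraries and 3.93 and 3.82 in the Control libraries.

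Of all 9 polymerase and primase genes 6 fell (66.7%, beside 24.7% of all identifiers tested) and 3 were not called, with a median of -0.44. POLE, the catalytic subunit of the leading-strand polymerase, was at 28.8 and 30.1 TPM in the CEBPB libraries, against 35.965 and 39.6 TPM in the Control libraries (-0.54, SE 0.09, adjusted p = 0.0061, edgeR). Its partner POLE2 was at 20.4 and 21.1 TPM in the CEBPB libraries and 23.4 and 26.2 TPM in the Control libraries (-0.44, SE 0.10, adjusted p = 0.0163, edgeR). POLA1, the catalytic subunit of polymerase α, which starts each new strand with the primase, was at 20.1 and 17.3 TPM in the CEBPB libraries and 22.6 and 22.3 TPM in the Control libraries (-0.44, SE 0.09, adjusted p = 0.0112, edgeR). The small primase subunit PRIM1 fell by 0.25 (adjusted p = 0.0327, edgeR), with overlapping groups in TPM, 58.6 and 51.7 in the CEBPB libraries and 57.6 and 58.1 in the Control libraries. By library totals POLE2 (adjusted p = 0.0795, edgeR), POLA1 (0.0993) and PRIM1 (0.568) were not called. Without 1 library the calls were lost for POLE2 (CEBPB replicate 1, 0.0774, or Control replicate 2, 0.083), POLA1 (Control replicate 1, 0.0515) and PRIM1 (CEBPB replicate 2, 0.0886, Control replicate 1, 0.143, or Control replicate 2, 0.165). DESeq2 did not call PRIM1 (0.0877). The large primase subunit PRIM2 (-0.0087, adjusted p = 0.942, edgeR) and POLA2 (0.25, 0.109), the second subunit of polymerase α, were not called, and POLA2 was called higher by library totals (0.44, adjusted p = 0.0391, edgeR), as in both limma fits and without CEBPB replicate 2.

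**Figure D3:**
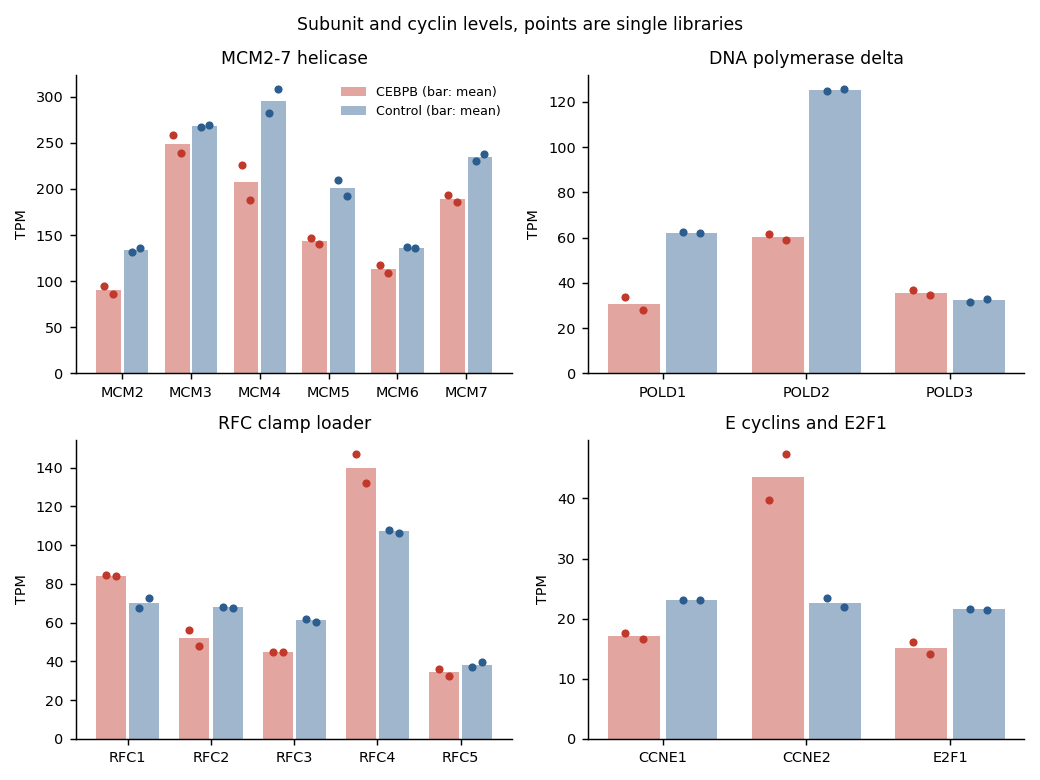
TPM (vertical axes, from 0) of the MCM2-7 ring, DNA polymerase δ, the RFC clamp loader, and the E cyclins with E2F1, with bars for group means, points for single libraries and CEBPB left of Control for each gene. POLD1 and POLD2 are lower in both CEBPB libraries while POLD3 is not, RFC4 and CCNE2 are higher, and each ring gene is lower.

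The clamp and its loader divided. Of 6 genes 3 fell (50%), 1 rose (16.7%) and 2 were not called, with a median of -0.26. Over all identifiers tested 24.7% fell and 23.7% rose. PCNA, the sliding clamp and the most abundant of the 48 genes, was at 405 and 381 TPM in the CEBPB libraries, against 402 and 385 TPM in the Control libraries. The groups overlapped and PCNA was not called (-0.18, SE 0.06, adjusted p = 0.0554, edgeR), with -0.0005 by library totals. It was called lower by DESeq2 and with recovered reads (-0.20, adjusted p = 0.0175, edgeR). The loader subunits RFC3 and RFC2 fell. RFC3 was at 44.96 and 44.6 TPM in the CEBPB libraries and 61.9 and 60.4 TPM in the Control libraries (-0.63, SE 0.07, adjusted p = 0.0014, edgeR), and RFC2 at 55.9 and 47.9 TPM in the CEBPB libraries and 68.2 and 67.4 TPM in the Control libraries (-0.57, SE 0.08, adjusted p = 0.0028, edgeR).

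RFC5, a further small subunit, was at 36.2 and 32.5 TPM in the CEBPB libraries and 36.9 and 39.4 TPM in the Control libraries (-0.33, SE 0.08, adjusted p = 0.0168, edgeR; 0.229 by library totals, 0.0511 by DESeq2, 0.0592 without CEBPB replicate 2, 0.052 without Control replicate 1 and 0.113 without Control replicate 2). RFC4 moved the other way, with 147 and 132 TPM in the CEBPB libraries and 108 and 106 TPM in the Control libraries (0.20, SE 0.06, adjusted p = 0.0462, edgeR). RFC4 was called by library totals (0.38, adjusted p = 0.0112, edgeR) but not by DESeq2 (0.0613), without a filter (0.0691), without CEBPB replicate 1 (0.0951), without Control replicate 1 (0.206) or without Control replicate 2 (0.256). RFC1, the large subunit, was at 84.5 and 83.9 TPM in the CEBPB libraries and 67.7 and 72.7 TPM in the Control libraries (0.08, adjusted p = 0.380, edgeR), and it was called higher by library totals (0.26, 0.032) and in both limma fits. The ratio of RFC4 to RFC3 was 3.27 and 2.96 in the CEBPB libraries and 1.74 and 1.76 in the Control libraries, and that of RFC4 to RFC2 was 2.63 and 2.76 in the CEBPB libraries and 1.58 and 1.57 in the Control libraries.

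Genes of single-stranded DNA binding and Okazaki fragment joining held 1 fall among 5 genes, with 4 not called and a median of -0.14. The share that fell, 20%, is near the 24.7% of all identifiers tested. RPA2 was at 99.1 and 95.1 TPM in the CEBPB libraries and 98.5 and 104 TPM in the Control libraries, with overlapping groups (-0.24, SE 0.06, adjusted p = 0.0286, edgeR), and it was not called by library totals (0.545) or without any 1 of the 4 libraries (0.0578 to 0.212). RPA1 (0.05, adjusted p = 0.634, edgeR), the largest subunit of the same complex, and RPA3 (-0.12, 0.225), the smallest, were not called. FEN1, the nuclease that trims Okazaki fragments, was at 104 and 95.0 TPM in the CEBPB libraries and 100.4 and 99.7 TPM in the Control libraries (-0.19, SE 0.06, adjusted p = 0.0508, edgeR). LIG1, the ligase that seals them, was at 33.0 and 32.6 TPM in the CEBPB libraries and 30.8 and 33.2 TPM in the Control libraries (-0.14, SE 0.08, adjusted p = 0.196, edgeR). By library totals RPA3 (0.06) and LIG1 (0.04) were positive, and FEN1 (adjusted p = 0.0071, edgeR) and LIG1 (0.0354) were called lower with recovered reads.

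**Figure D4:**
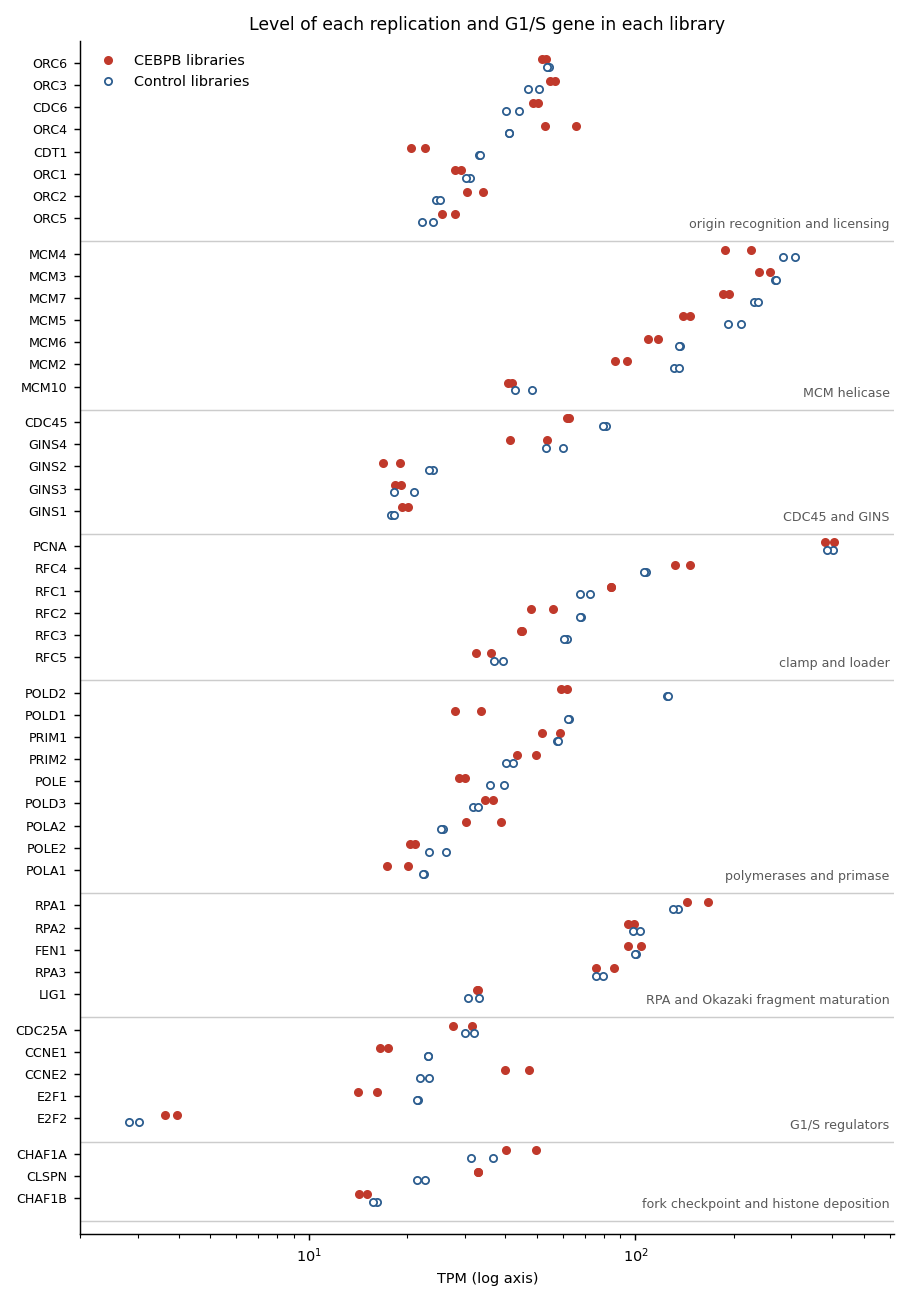
TPM (horizontal log axis) of each of the 48 genes in each library, grouped by role, with filled red points for CEBPB and open blue points just beneath for Control. PCNA has the highest levels, at 381 to 405 TPM, and E2F2 the lowest, at 2.83 to 3.96 TPM, and for most genes the distance between the groups is small beside the distance between genes.

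Among the regulators of the G1/S step the E cyclins moved in opposite directions. CCNE2 (chromosome 8, 94879770 to 94896678) was at 39.8 and 47.4 TPM in the CEBPB libraries, against 23.4 and 21.9 TPM in the Control libraries (0.77, SE 0.13, adjusted p = 0.0061, edgeR), or 1.70-fold higher. CCNE1 (chromosome 19, 29811898 to 29824308) was at 17.5 and 16.5 TPM in the CEBPB libraries and 23.2 and 23.1 TPM in the Control libraries (-0.62, SE 0.08, adjusted p = 0.0025, edgeR). Neither change was called against a threshold of 1.5-fold (edgeR, adjusted p = 0.154 for CCNE2 and 0.458 for CCNE1). The ratio of CCNE2 to CCNE1 was 2.27 and 2.87 in the CEBPB libraries and 1.01 and 0.948 in the Control libraries. Their sum was 57.3 and 63.9 TPM in the CEBPB libraries and 46.6 and 45.1 TPM in the Control libraries.

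E2F1, an activator of the family whose motif is marked above, was at 16.2 and 14.2 TPM in the CEBPB libraries, against 21.6 and 21.4 TPM in the Control libraries (-0.68, SE 0.09, adjusted p = 0.0027, edgeR). E2F2, a second activator and the least abundant of the 48 genes, was at 3.64 and 3.96 TPM in the CEBPB libraries and 3.02 and 2.83 TPM in the Control libraries (0.20, SE 0.21, adjusted p = 0.469, edgeR). Its values are identical to those of a second identifier without a symbol, so its reads are not told apart from that one. CDC25A, the phosphatase that activates CDK2, was at 31.6 and 27.6 TPM in the CEBPB libraries and 32.2 and 30.2 TPM in the Control libraries (-0.26, SE 0.08, adjusted p = 0.0517, edgeR). It was called lower with recovered reads (adjusted p = 0.0058, edgeR). The 5 regulators thus held 2 falls (40%), 1 rise (20%) and 2 genes without a call. Over all identifiers tested 24.7% fell and 23.7% rose.

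Of the 3 genes of the fork checkpoint and of histone deposition 1 rose (33.3%), 1 fell (33.3%) and 1 was not called. Over all identifiers tested 23.7% rose and 24.7% fell. CLSPN encodes claspin, the adaptor that passes the ATR signal to CHEK1. It was at 33.1 and 32.9 TPM in the CEBPB libraries and 22.7 and 21.5 TPM in the Control libraries (0.40, SE 0.08, adjusted p = 0.0111, edgeR), and the call was lost without Control replicate 2 (0.0735). CHAF1B, a subunit of the chromatin assembly factor that places histones behind the fork, was at 15.1 and 14.3 TPM in the CEBPB libraries and 16.2 and 15.8 TPM in the Control libraries (-0.30, SE 0.09, adjusted p = 0.0396, edgeR). It was not called by library totals (0.363), by DESeq2 (0.249), without a filter (0.0627) or without any 1 of the 4 libraries (0.113 to 0.176). CHAF1A, the large subunit, was at 49.6 and 40.1 TPM in the CEBPB libraries and 31.4 and 36.6 TPM in the Control libraries (0.22, SE 0.12, adjusted p = 0.179, edgeR), and it was called higher with recovered reads (0.23, 0.0315).

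**Figure D5:**
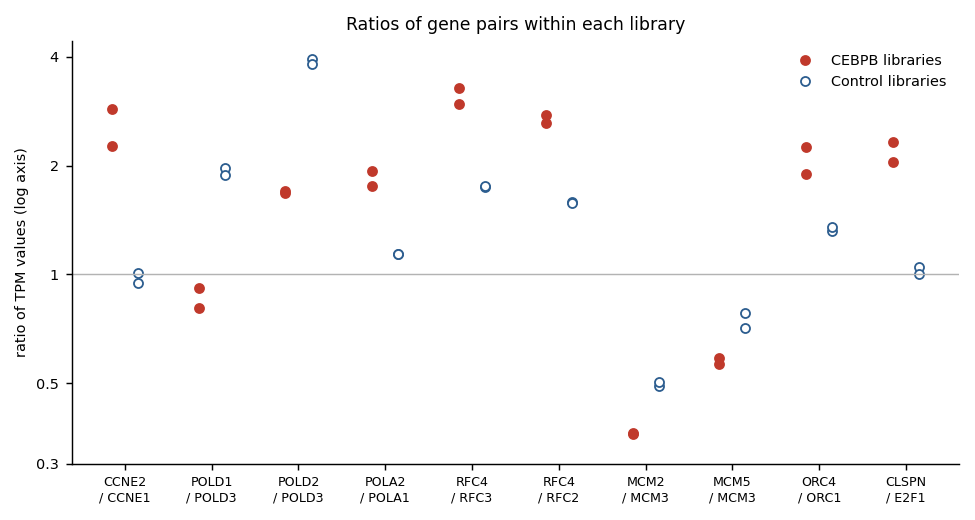
Ratio of TPM values of 10 gene pairs (vertical log axis) within each library, filled points for CEBPB and open points for Control. The groups do not overlap in any of the 10 pairs, which were picked after the values were seen, and CCNE2 to CCNE1 moves most upward, at 2.27 and 2.87 in the CEBPB libraries against 1.01 and 0.948 in the Control libraries.

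The gene pairs whose ratios are given were picked after their values were seen, and 10 were computed. With 2 libraries against 2, an exact two-sided permutation test cannot give a p below 0.333, so the ratios are given without a test.

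Genes of replication outside the 48 also moved in both directions. Of 40 further replication genes 18 fell (45%), 6 rose (15%) and 16 were not called, with a median of -0.27. Over all identifiers tested 24.7% fell and 23.7% rose. Scaled by library totals 8 of the 40 fell (20%) and 12 rose (30%), near the 17.2% and 32.3% of all identifiers. UHRF1, which keeps DNA methylation on new strands, averaged 38.8 ± 1.97 TPM in the CEBPB libraries and 81.8 ± 3.24 TPM in the Control libraries (SD, n = 2 each; -1.26, adjusted p = 2.4e-04, edgeR). The polymerase ε subunit POLE3 (-0.71) and the histone chaperone subunit SSRP1 (-0.63) also fell. RRM2, the regulated subunit of ribonucleotide reductase, averaged 868 ± 133 TPM in the CEBPB libraries and 334 ± 3.22 TPM in the Control libraries (1.20, adjusted p = 5.4e-04, edgeR). Its partner RRM1 (0.35) and the chromatin factor ATAD2 (0.42) rose.

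Of 24 listed G1/S control genes 23 were tested. Of these 7 fell (30.4%), 6 rose (26.1%) and 10 were not called, with a median of -0.10. Over all identifiers tested 24.7% fell and 23.7% rose, so these shares are near the background. By library totals 7 fell (30.4%) and 10 rose (43.5%), beside 17.2% and 32.3% of all identifiers. CDK4 (-0.84), the kinase of the D cyclins, CDKN1A (-1.67), which encodes the inhibitor p21, and E2F4 (-0.75), a repressor of the family, fell. The kinase inhibitors CDKN2C (1.23) and CDKN1B (0.67) and the repressor E2F7 (1.38) rose. Among 14 mitotic genes 3 fell (21.4%), PLK1 (-0.35), CCNB2 (-0.29) and AURKB (-0.26), and 3 rose (21.4%), CENPE (0.71), MKI67 (0.62) and KIF11 (0.35). Both shares are near those of all identifiers. The median of the mitotic list was 0.0082, and by library totals 5 rose (35.7%, beside 32.3% of all identifiers) and 9 were not called. Whether the share of cells in S phase differed between the groups was not tested.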

How the data were processed

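RNA of 2 CEBPB and 2 Control libraries was sequenced after poly(A) selection with a stranded Illumina kit, per the labels. The submitters' processing notes name Trimmomatic 0.39, kallisto 0.46.2 and GRCh38. Which annotation was used, whether strand was used and how transcripts were summed to genes is not given in the sources used here. The authors deposited TPM, expected counts and a further unit, the effective length in bases. Each deposited expected count equals TPM times 1 constant per library, so it carries no transcript length.

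Symbols were matched for 35690 of 41084 identifiers. Counts were rounded, filtered with filterByExpr (minimum count 10) and normalized by the TMM method, with factors of 0.9385 to 1.095. The quasi-likelihood F test of edgeR 4.0.16 (R 4.3.3) compared CEBPB with Control at a threshold of 0.05, with Benjamini-Hochberg adjustment. That test gives no SE. Each SE printed was taken as the absolute log2 fold change divided by the square root of F. The biological coefficient of variation was 11.3%. To recover reads, TPM was multiplied by effective length and brought to each library's total; each of the 48 genes had at least 284 in every library. Alternatives were other scalings, no filter, DESeq2 1.42.0, limma 3.58.1 on log2 TPM plus 1 or 0.1, recovered reads, a 1.5-fold threshold, a replicate block and each library left out. The fit was tested on simulated data. Coordinates of genes are GENCODE 29, start sites are RefSeq. Figures used matplotlib 3.10.9.

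The 48 genes, the lists and the motifs were chosen with earlier results of these data known. Per-library values are given for CEBPB and, in each role group, for up to 4 genes with the smallest adjusted p and at least 1 of each direction, and from other lists for up to 3 called genes per direction. Further genes of the 48, and POLD4 outside them, were named after their values were seen.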

Additional observations from a re-analysis of the deposited data

How the results depend on the processing

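Against the 26 genes called lower and 4 higher, DESeq2 size factors gave 26 and 4 and no filter 24 and 3. Over all identifiers DESeq2 size factors gave 24.7% lower and 23.7% higher, and no filter 16.3% and 15.5%. DESeq2 gave 21 lower and 3 higher, with 21.3% and 19.2% of all identifiers, and recovered reads 31 and 6, with 30.7% and 30.5%. Library totals, limma on log2 TPM plus 1 and limma on log2 TPM plus 0.1 each gave 15 lower and 7 higher. All 15 were among the 26. Over all identifiers these 3 fits gave 17.2% to 17.9% lower and 32.3% to 32.8% higher. Against a 1.5-fold change 4 were lower and 0 higher, and over all identifiers 1188 and 1186, beside 3390 and 3251. With 1 library left out 16 to 20 genes were lower and 1 to 5 higher: 20 and 3 without CEBPB replicate 1, 19 and 5 without CEBPB replicate 2, 18 and 2 without Control replicate 1, and 16 and 1 without Control replicate 2. A lone library is then assumed to vary like the other group. In each such fit the shares of all identifiers called lower and called higher also fell, below the 24.7% and 23.7% of the main fit. A smaller count with a library left out is therefore not particular to these genes, nor to the other replication and G1/S control genes below. The cause of these shifts was not tested, but totals move the median of all identifiers by 0.18.

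For the 64 other replication and G1/S control genes, 25 were lower and 12 higher, where 24.7% of all identifiers were lower and 23.7% higher. Library totals and limma with 0.1 added gave 15 lower and 22 higher, limma with 1 added 16 and 22, and the 1.5-fold test 4 and 4. With 1 library left out 16 to 24 were lower and 7 to 11 higher.

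The replicate numbers were not shown to pair the libraries: deviations of same-numbered libraries correlated at -0.013. With the replicate block 25 of the 48 genes were lower and 3 higher, beside 24.1% and 23.2% of all identifiers. RFC4, ORC6 and CHAF1B lost their calls (adjusted p = 0.0757, 0.0699 and 0.0597, edgeR) and CDC25A gained one (0.0488).

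Values that changed sign were all of genes not called in either fit. By library totals, limma plus 1 and limma plus 0.1 these were GINS1 (0.128, 0.122 and 0.128), PRIM2 (0.173, 0.165 and 0.168), POLD3 (0.143, 0.138 and 0.141), RPA3 (0.0592, 0.0552 and 0.0558) and LIG1 (0.0394, 0.0383 and 0.0393). With recovered reads ORC3 (-0.0417) and RPA1 (-0.0329) were negative. Without Control replicate 1, ORC3 (-0.0439), ORC5 (-0.0306) and PRIM2 (0.0296) changed sign; their values with any 1 library left out ran from -0.0439 to 0.0659 for ORC3, from -0.0306 to 0.0897 for ORC5 and from -0.0629 to 0.0535 for PRIM2. CDC6 ran from -0.0168 to 0.117 and RPA1 from -0.0181 to 0.119.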
